A study of Mus musculus with 6 samples.

Results

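The phagocyte NADPH oxidase, the related oxidase Nox4 and the superoxide dismutases were examined at day 3 of muscle regeneration. The family held 9 genes, listed by name as oxidase subunits and superoxide dismutases, and all 9 were found among the 26431 genes of the expression table and among the 14446 that were tested. Cybb, Cyba, Ncf1, Ncf4 and Rac2 encode parts of the phagocyte enzyme, Nox4 a separate oxidase, and Sod1, Sod2 and Sod3 the 3 superoxide dismutases. Each had a single transcript in the table.

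RNA was sequenced from the tibialis anterior (TA) muscle of 6 C57BL/6 mice, 8 to 10 weeks of age. The sample labels give all 6 as female, whereas the methods name male mice as the default for adult animals, and the sex was not checked here. The injured group (n = 3) had received cardiotoxin of Naja mossambica mossambica (50 µl at 10 µM) and was taken at day 3, and it was set against uninjured TA muscle (n = 3). Cardiotoxin is a venom peptide that lyses muscle fibres and leaves the muscle stem cells able to rebuild them. According to the methods each time point had separate mice, which the sample labels do not state, so p-values measure the spread between these libraries.

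In phagocytes, Cybb and Cyba form the membrane cytochrome that passes electrons from NADPH to oxygen and so makes superoxide. The cytochrome is idle until cytosolic subunits, among them Ncf1 and Ncf4, and a Rac GTPase move to the membrane and join it. Nox4 also pairs with Cyba but needs no cytosolic subunit, is found in many non-immune cells and releases mainly hydrogen peroxide. Superoxide is turned into hydrogen peroxide by Sod1 in the cytosol, Sod2 in the mitochondrial matrix and Sod3 outside the cell.

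Expression was deposited as RPKM, the reads divided by transcript length and by the library's mapped reads, so that levels of different genes can be compared per length. The libraries held 34202861 to 36129090 mapped reads at day 3 and 38737746 to 43062684 in uninjured muscle. At these depths 1 read in a transcript of 1 kb was worth 0.0277 to 0.0292 RPKM at day 3 and 0.0232 to 0.0258 RPKM in uninjured muscle. Genes were compared on log2(RPKM + 0.1) with limma, a scale that understates the change of low genes. A gene was called at an adjusted p (Benjamini-Hochberg, over all tested genes) under 0.05 and a change of 2-fold or more. By these criteria 60.5% of the tested genes were called higher at day 3 and 7.96% lower, and the tested genes had a median log2 fold change of 1.35. The balance depended on the scaling of the libraries. There were 8740 genes higher and 1150 lower in the deposited RPKM, against 3801 and 3254 under median-of-ratios scaling and 3460 and 3561 under quantile normalization, which moved the median of all genes to 0.06 and -0.07.

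Of the 9 genes, 7 (77.8%) were called higher at day 3, where 60.5% of all tested genes were. A further 1 was called lower, where 7.96% of all tested genes were, and 1 was not called. The median log2 fold change of the 9 was 4.998. The 3 day 3 values lay above the 3 uninjured values for 8 of the 9 genes, where 78.5% of all tested genes did so, and below them for 1, where 14.5% did. The 5 subunits of the phagocyte enzyme had the 5 highest fold changes of the family. Cybb and Ncf4 averaged under the 0.5 RPKM minimum in uninjured muscle and were tested through their day 3 values, so their calls were favoured by the filter. Whole muscle was sequenced, so more cells of a type and more RNA per cell cannot be told apart.

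**Figure D1:**
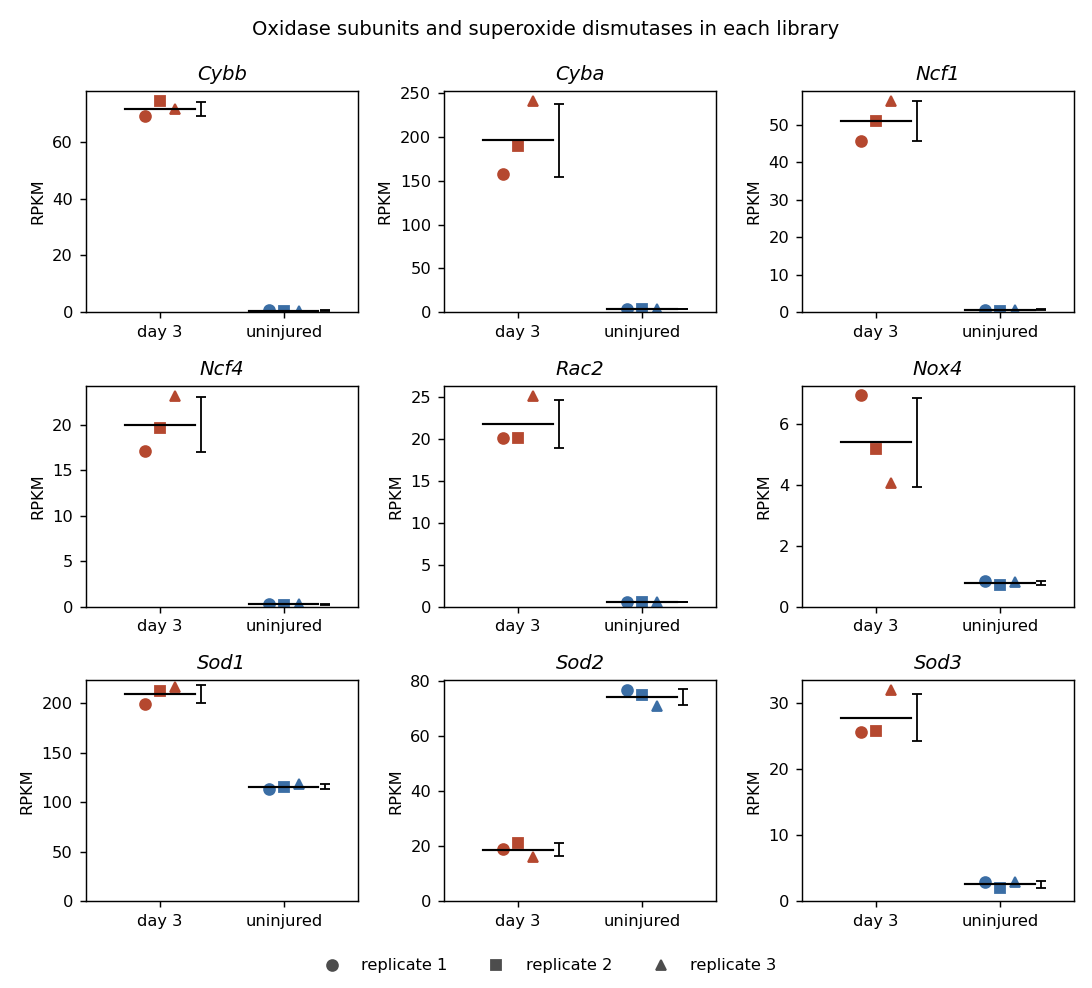
RPKM (y axis, from 0, with its own scale for each gene) of the 9 genes in the 3 day 3 libraries (left) and the 3 uninjured libraries (right); points are libraries, horizontal lines are group means and the bars beside them are SD. Sod2 is the only gene whose day 3 libraries lie below the uninjured ones, at 16.2 to 21.1 RPKM at day 3 against 71.1 to 76.9 RPKM in uninjured muscle.

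Both parts of the cytochrome were higher at day 3. Cybb, the catalytic subunit gp91phox, lies on chrX:9435252-9487771 (GRCm38, minus strand), and its matching transcript has 13 exons and 570 codons. Its level was 69.2, 74.3 and 71.5 RPKM in the day 3 libraries, against 0.57, 0.31 and 0.45 RPKM in the uninjured libraries. The day 3 libraries lay close together and far above the uninjured ones, in which Cybb was above 14.2% of the tested genes. The group means were 71.7 ± 2.55 RPKM at day 3 and 0.441 ± 0.133 RPKM in uninjured muscle (SD, n = 3 each), a ratio of 162. The log2 fold change was 7.08 (standard error 0.17, limma adjusted p = 9.63e-08), the 48th highest of all tested genes. The reads behind these values were 36067 over the day 3 libraries and 256 over the uninjured ones.

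Cyba, the small subunit p22phox that stabilizes Cybb and also Nox4, lies on chr8:122424776-122432930 (GRCm38, minus strand). It had 157, 190.2 and 241 RPKM at day 3, against 3.68, 3.31 and 3.55 RPKM in uninjured muscle. Its day 3 level varied more between libraries than that of Cybb, and the groups did not overlap. The log2 fold change was 5.74 (standard error 0.15, limma adjusted p = 1.06e-07), and the ratio of the means was 55.9. GENCODE places another gene, Gm20388, on the opposite strand across the 8155 bases of Cyba. This overlap and those given below are of whole genes, introns included, and Gm20388 had no value in the deposited RPKM. Whether the reads were counted by strand is not given in the sources used here. Whether such pairs share reads was not tested.

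The sequences before the start sites of Cybb and Ncf1 are shown because they bear letters of the interferon-regulatory factor element, GAAANNGAA, which was searched on both strands and is in capitals. They are RefSeq windows (GRCm38.p6) of 250 bases before and 50 bases after the start, at chrX:9469275-9469574 (minus strand) and chr5:134229576-134229875 (minus strand).
Cybb: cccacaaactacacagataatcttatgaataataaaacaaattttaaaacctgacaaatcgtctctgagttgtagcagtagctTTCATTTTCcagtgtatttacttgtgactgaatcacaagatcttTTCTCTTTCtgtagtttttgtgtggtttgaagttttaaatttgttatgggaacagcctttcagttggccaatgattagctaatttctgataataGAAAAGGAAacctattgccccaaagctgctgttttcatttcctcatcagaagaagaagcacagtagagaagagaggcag
Ncf1: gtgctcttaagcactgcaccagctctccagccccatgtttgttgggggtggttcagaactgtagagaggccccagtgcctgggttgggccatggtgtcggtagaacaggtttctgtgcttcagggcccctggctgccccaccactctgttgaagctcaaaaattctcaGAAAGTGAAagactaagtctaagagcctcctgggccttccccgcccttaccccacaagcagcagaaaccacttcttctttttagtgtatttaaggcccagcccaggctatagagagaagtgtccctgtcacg
The Cybb window held the element 3 times, 167, 123 and 29 bases before the start. The Ncf1 window held it once, 82 bases before the start. The windows of Cyba, Nox4, Sod1 and Sod2 did not hold it. Of 32851 windows of the same length, 8.56% held it at least once and 21 (0.0639%) at least 3 times. The Cybb window had 1 CpG dinucleotide and 35.3% G and C, and the median window had 7 CpG. A match is a run of letters and no evidence of binding. Windows were found for 6 of the 9 genes, and those of Ncf4, Rac2 and Sod3 were not analysed here. The RefSeq start of Cybb lies inside the longer GENCODE gene.

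The cytosolic subunits were higher at day 3 as well. Ncf1, the organizer p47phox that carries the others to the membrane, lies on chr5:134220053-134229625 (GRCm38, minus strand). It had 45.7, 50.9 and 56.2 RPKM at day 3, against 0.67, 0.41 and 0.65 RPKM in uninjured muscle. The groups did not overlap and the spread within each was small beside the gap. It had a log2 fold change of 6.26 (standard error 0.17, limma adjusted p = 1.13e-07), and the ratio of the means was 88.6. Ncf1 shares 4303 bases with Gtf2ird2 on the opposite strand, but that gene was at 2.12 to 2.44 RPKM at day 3 and 2.17 to 2.20 RPKM in uninjured muscle.

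Ncf4, the subunit p40phox that binds the phosphoinositide of phagosome membranes, lies on chr15:78244801-78262580 (GRCm38, plus strand). Its level was 17.1, 19.6 and 23.1 RPKM at day 3, against 0.30, 0.23 and 0.26 RPKM in uninjured muscle. It was the lowest of the 9 genes in uninjured muscle, where the 3 libraries together held 47 reads, against 3102 at day 3. Ncf4 had a log2 fold change of 5.78 (standard error 0.14, limma adjusted p = 9.59e-08).

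Rac2, the Rac GTPase of blood cells, lies on chr15:78559167-78572783 (GRCm38, minus strand) and encodes 192 codons. It had 20.1, 20.1 and 25.1 RPKM at day 3, against 0.57, 0.58 and 0.59 RPKM in uninjured muscle. Its log2 fold change of 4.998 (standard error 0.11, limma adjusted p = 8.23e-08) was the smallest of the 5 phagocyte subunits. The ubiquitous Rac1 stood at 148, 151 and 166 RPKM at day 3, against 63.4, 62.4 and 60.9 RPKM in uninjured muscle. Its log2 fold change of 1.32 lost its call under each of the 4 other scalings and was -0.03 under median-of-ratios scaling. Rac1 was thus the more abundant of the pair in every library, 7.17-fold above Rac2 at day 3 and 107-fold above it in uninjured muscle.

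**Figure D2:**
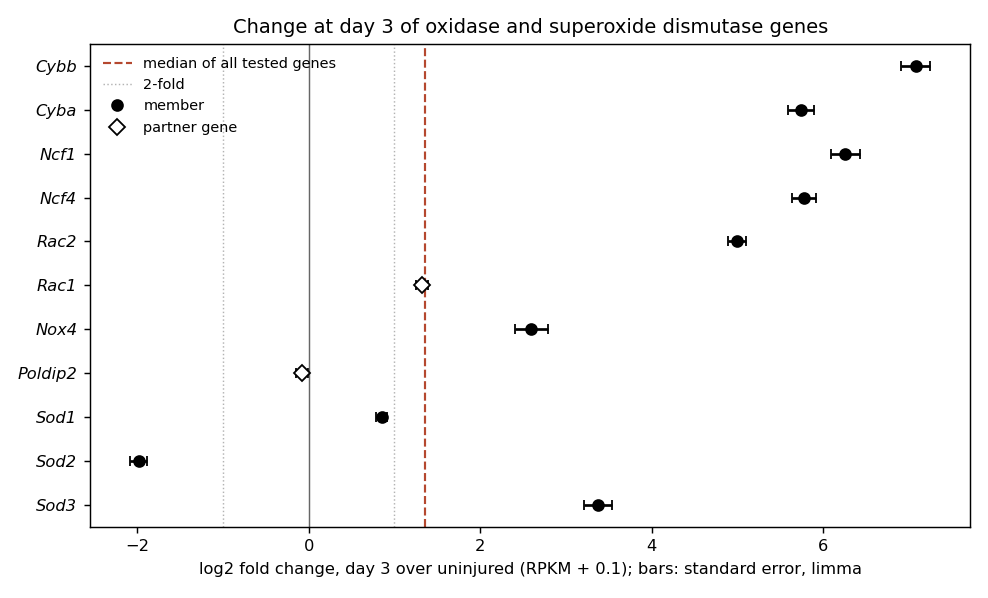
Log2 fold change of day 3 over uninjured muscle (x axis, on log2(RPKM + 0.1)) of the 9 genes (filled circles) and of Rac1 and Poldip2 (open diamonds); bars are standard errors from limma, the dashed line is the median of all tested genes (1.35) and dotted lines mark 2-fold. The phagocyte subunits lie between 4.998 and 7.08, and Sod2 alone lies on the negative side past 2-fold.

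Apart from Rac1 and Poldip2, the further genes of the oxidase group were measured at low levels. Of 12 such genes, Rac1 and Poldip2 included, 6 were tested. Of these 5 were called higher, where 60.5% of all tested genes were, none was called lower and 1 was not called. Their median log2 fold change was 1.94. A gene that is near 0 in uninjured muscle is tested only if it is higher at day 3, so this count leans towards higher genes, and 4 of the 6 tested averaged under the minimum in uninjured muscle. Under median-of-ratios scaling 3 were called higher and Poldip2 lower, and under quantile normalization 2 were called higher and none lower. Hvcn1, the proton channel that balances the charge moved by the oxidase, was at 6.24 to 7.44 RPKM at day 3 and 0.30 to 0.34 RPKM in uninjured muscle, a log2 fold change of 4.02. BC017643, the mouse name of Cybc1, a chaperone that the cytochrome needs, had 4.28 to 5.45 RPKM at day 3 and 0.32 to 0.42 RPKM in uninjured muscle, a log2 fold change of 3.37. Duoxa1, a maturation factor of the dual oxidases, and Noxo1, the organizer of Nox1, had log2 fold changes of 2.18 and 1.71 (1.06 and 0.62 under median-of-ratios scaling) and stayed under 2 RPKM in every library. Nox1, Nox3, Noxa1, Duox1, Duox2 and Duoxa2 were under the minimum for testing, and none of these exceeded 0.861 RPKM in any library. Cybb and Nox4 were therefore the only catalytic oxidase subunits of the mouse that passed the minimum.

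The order of the members differed between the groups. At day 3 it ran from Sod1 (209 RPKM on average) through Cyba (196), Cybb (71.7), Ncf1 (50.9), Sod3 (27.8), Rac2 (21.8), Ncf4 (19.98) and Sod2 (18.8) to Nox4 (5.39). The libraries of Sod1 and Cyba, of Rac2 and Ncf4, and of Ncf4 and Sod2 overlapped, and other neighbours in this order did not. In uninjured muscle the order ran from Sod1 (116 RPKM) through Sod2 (74.3), Cyba (3.51), Sod3 (2.61), Nox4 (0.789), Rac2 (0.581), Ncf1 (0.575) and Cybb (0.441) to Ncf4 (0.265). There Rac2 overlapped Ncf1 and Ncf1 overlapped Cybb. Cyba was above 54.8% of the tested genes in uninjured muscle, where the other 4 phagocyte subunits were above no more than 18.1%. At day 3 the 5 subunits lay above 75.4% (Ncf4) to 98.0% (Cyba) of the tested genes.

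A ratio between 2 genes of the same library does not change when all its values are multiplied by 1 factor, which quantile normalization does not do. Log2 ratios of RPKM + 0.1, in which the added 0.1 leaves a small dependence on scaling, were formed for 11 pairs, and the 3 day 3 and 3 uninjured libraries did not overlap in 10 of them. With 3 libraries against 3, a two-sided exact permutation test cannot give p below 0.1, which was reached in these 10 (adjusted p = 0.11 over the 11 pairs). Cybb was at 0.44, 0.39 and 0.30 of the level of Cyba at day 3, against 0.16, 0.093 and 0.13 in uninjured muscle, a difference of the log2 ratio of 1.34. This difference depended on the pseudocount and was 1.58 with a pseudocount of 0.01 and 0.23 with a pseudocount of 1. Cyba was the more abundant cytochrome subunit in all 6 libraries, by a smaller margin at day 3. The log2 ratio to Cybb was lower at day 3 by 0.82 for Ncf1, by 1.30 for Ncf4 and by 2.08 for Rac2. Rac2 over Rac1 was higher at day 3 by 3.68.

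Nox4 was higher at day 3 but remained the lowest of the 9 genes there. It lies on chr7:87246096-87398710 (GRCm38, plus strand) and its matching transcript has 18 exons and 578 codons. It had 6.94, 5.19 and 4.05 RPKM at day 3, against 0.84, 0.72 and 0.80 RPKM in uninjured muscle. The groups did not overlap, and the day 3 libraries were further apart in proportion than those of Cybb. Its log2 fold change was 2.60 (standard error 0.19, limma adjusted p = 6.33e-06), and the ratio of the means was 6.84. Under quantile normalization the log2 fold change was 0.96 and Nox4 was not called. Cybb was 14.0-fold above Nox4 at day 3 and at 0.553 of its level in uninjured muscle, so the order of the 2 catalytic subunits was reversed. Nox4 over Cyba was lower at day 3 by 3.15 on the log2 scale. Poldip2, a protein that binds Cyba and raises Nox4 activity, had 36.8 to 41.0 RPKM at day 3 and 39.0 to 42.1 RPKM in uninjured muscle (log2 fold change -0.08, limma adjusted p = 0.292, and -1.42 under median-of-ratios scaling).

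The sequence around the RefSeq start of Nox4, chr7:87246399-87246698 (GRCm38.p6, plus strand), is given for its contrast with that of Cybb in base composition. Capitals mark GGGCGG, the letters of the Sp1 box.
Nox4: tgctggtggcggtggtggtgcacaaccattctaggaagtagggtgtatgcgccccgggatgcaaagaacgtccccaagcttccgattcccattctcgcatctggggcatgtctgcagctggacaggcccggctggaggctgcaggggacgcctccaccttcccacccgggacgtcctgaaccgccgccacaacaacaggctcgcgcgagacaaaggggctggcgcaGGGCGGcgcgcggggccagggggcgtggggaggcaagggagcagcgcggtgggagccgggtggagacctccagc
It held 24 CpG and 68.3% G and C, and GGGCGG once, 24 bases before the start. The box was searched on both strands and occurred in 35.7% of all windows. The Cyba window held it 2 times, the Ncf1 window once and the Cybb window not at all.

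The 3 superoxide dismutases moved apart. Sod1, the copper and zinc enzyme of the cytosol, lies on chr16:90220754-90226329 (GRCm38, plus strand) and encodes 154 codons. It had 199.8, 212 and 216 RPKM at day 3, against 114, 116 and 118 RPKM in uninjured muscle. The groups did not overlap, but the change stayed under 2-fold, at a log2 fold change of 0.85 (standard error 0.07, limma adjusted p = 1.02e-05) that was below the median of all genes and was -0.49 under median-of-ratios scaling. Sod1 was not called, and it lay above 98.2% of the tested genes at day 3 and above 97.8% in uninjured muscle. It shares 650 bases with Scaf4 on the opposite strand, which had 9.76 to 10.8 RPKM at day 3 and 3.88 to 4.11 RPKM in uninjured muscle.

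Sod2, the manganese enzyme of mitochondria, was the only member called lower. It lies on chr17:13006846-13040063 (GRCm38, plus strand) and encodes 222 codons. It had 19.2, 21.1 and 16.2 RPKM at day 3, against 76.9, 75.04 and 71.1 RPKM in uninjured muscle. Every day 3 library was far below every uninjured library, and the day 3 mean was 25.3% of the uninjured mean. The log2 fold change was -1.98 (standard error 0.10, limma adjusted p = 1e-06), and it was lower under each of the 4 other scalings, down to -3.32.

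Sod3, the secreted enzyme that binds the matrix, lies on chr5:52363791-52371418 (GRCm38, plus strand) and encodes 251 codons. It had 25.7, 25.8 and 32.0 RPKM at day 3, against 2.95, 2.00 and 2.87 RPKM in uninjured muscle. The groups did not overlap, and the log2 fold change was 3.38 (standard error 0.16, limma adjusted p = 7.37e-07), a ratio of means of 10.7.

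The summed RPKM of the 3 genes was 256 ± 10.3 at day 3 and 193 ± 0.817 in uninjured muscle (SD, n = 3 each). This rise depends on the scaling of the libraries, and the sum was formed for the deposited RPKM only. Under median-of-ratios scaling the log2 fold change of Sod1 was -0.49 and that of Sod2 -3.32. Shares of the sum do not change when all values of a library are multiplied by 1 factor. Sod1 held 81.8% of the summed RPKM at day 3 and 60.1% in uninjured muscle. Sod2 held 7.36% at day 3 and 38.5% in uninjured muscle, and Sod3 held 10.8% at day 3 and 1.35% in uninjured muscle. Sod3 was 1.34, 1.22 and 1.98 times the level of Sod2 at day 3, against 0.038, 0.027 and 0.040 in uninjured muscle, so that their order changed in all libraries. The log2 ratio of Sod2 to Sod1 was lower at day 3 by 2.84, and that of Sod3 to Sod1 was higher by 2.53. Ccs, the chaperone that loads copper into Sod1, was at 0.0679 of the level of Sod1 at day 3 and 0.062 in uninjured muscle, and the groups overlapped (exact permutation p = 0.2, adjusted p = 0.2).

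**Figure D3:**
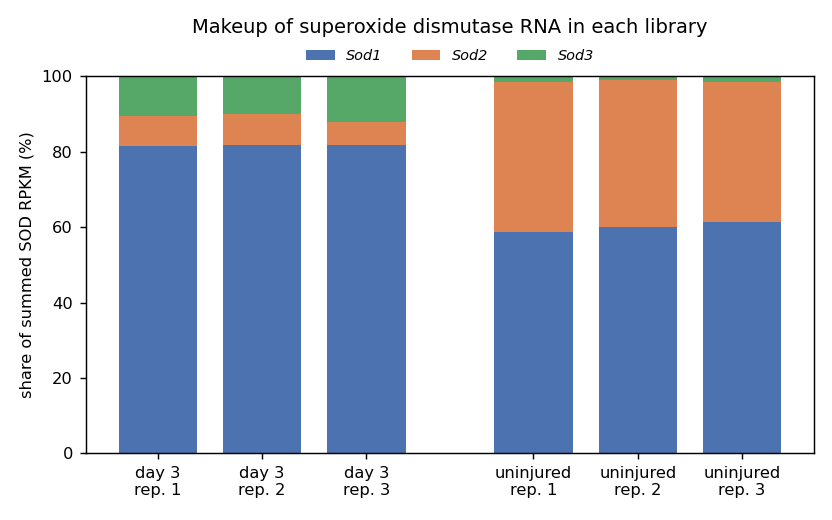
Share of the summed RPKM of Sod1, Sod2 and Sod3 held by each gene (y axis, percent) in the 3 day 3 libraries (left) and the 3 uninjured libraries (right). The Sod2 share is 6.12% to 8.14% at day 3 and 37.0% to 39.7% in uninjured muscle.

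The windows around the RefSeq starts of Sod1 (chr16:90220512-90220811, plus strand, GRCm38.p6) and Sod2 (chr17:13007589-13007888, plus strand, GRCm38.p6) are shown because these 2 dismutases, whose levels moved apart, hold the same letters. Capitals mark GGGCGG on either strand, and in Sod1 matches overlap each other.
Sod1: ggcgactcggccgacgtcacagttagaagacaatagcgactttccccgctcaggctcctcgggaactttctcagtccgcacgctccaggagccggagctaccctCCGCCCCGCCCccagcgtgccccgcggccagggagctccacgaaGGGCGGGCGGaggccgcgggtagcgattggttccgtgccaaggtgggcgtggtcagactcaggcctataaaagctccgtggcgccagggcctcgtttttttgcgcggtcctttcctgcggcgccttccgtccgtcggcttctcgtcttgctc
Sod2: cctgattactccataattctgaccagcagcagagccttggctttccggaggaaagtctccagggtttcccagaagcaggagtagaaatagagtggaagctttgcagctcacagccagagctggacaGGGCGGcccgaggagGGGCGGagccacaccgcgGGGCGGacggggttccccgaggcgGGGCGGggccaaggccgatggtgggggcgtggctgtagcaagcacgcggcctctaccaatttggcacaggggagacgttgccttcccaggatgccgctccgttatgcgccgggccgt
Each held GGGCGG 4 times, and 5.49% of all windows held it at least 4 times. The Sod1 window had 34 CpG and the Sod2 window 21. In Sod1 the letters of the antioxidant response element, TGACNNNGC, occurred once, 56 bases before the start, as in 12.4% of all windows, and in Sod2 they did not occur.

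Marker genes of the cell types that the muscle could hold were read beside the members. Their counts stand beside the 60.5% of all tested genes called higher and the 7.96% called lower. All 16 macrophage markers were called higher, Cx3cr1, Fcgr1 and Trem2 being tested through their day 3 values, with a median log2 fold change of 6.47. Their summed level was 4780 to 6623 RPKM at day 3 and 35.3 to 51.7 RPKM in uninjured muscle, a ratio of 121. Trem2, Mpeg1 and Fcgr1 had the largest log2 fold changes among them, 8.58, 8.37 and 7.81. Lyz2, a lysozyme gene that is not limited to macrophages, was the most abundant and made up much of the sum, at 2433 to 3499 RPKM at day 3. Of 12 neutrophil markers 6 were tested and called higher (3 under median-of-ratios scaling), but Mmp8 and Csf3r among these passed the minimum only through their day 3 values and 6 others were left out. The 6 tested had log2 fold changes of 4.745 (Mmp8), 4.37 (Csf3r), 3.42 (S100a8), 3.185 (Mmp9), 2.91 (S100a9) and 1.46 (Cxcr2). The summed level of all 12 was 26.8 to 58.9 RPKM at day 3 and 3.52, 3.91 and 10.5 RPKM in uninjured muscle. The value of 10.5 RPKM was that of uninjured replicate 3. Ly6g, which defines mouse neutrophils, was at the lowest listed value (0.01) in all 6 libraries, and Elane was at it in the 3 day 3 libraries. The 8 lymphocyte markers summed to 7.17 to 11.2 RPKM at day 3 and 0.313 to 0.634 RPKM in uninjured muscle. The part of these cells in the higher oxidase subunits was not tested.

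Markers of other cells were read beside Nox4, Sod2 and Sod3. Here too the counts stand beside 60.5% of all tested genes called higher and 7.96% called lower. Of 8 fibroblast markers 7 were called higher, led by Postn (5.36), Col3a1 (4.01) and Col1a1 (3.42), and they summed to 2363 to 2611 RPKM at day 3 and 235 to 371 RPKM in uninjured muscle. Of 7 markers of smooth muscle and pericytes 3 were called higher and none lower (1 higher and 2 lower under median-of-ratios scaling), with sums of 205 to 311 RPKM at day 3 and 128 to 131 RPKM in uninjured muscle. Of 9 endothelial markers none was called higher and Flt1 was called lower (5 lower under median-of-ratios scaling), with sums of 113 to 118 RPKM at day 3 and 96.2 to 108 RPKM in uninjured muscle. All 5 myoblast markers were called higher, Tmem8c being tested through its day 3 values, with a median of 3.67. All 12 adult fibre markers were called lower, with a median of -3.42, and summed to 2118 to 9211 RPKM at day 3 and 49628 to 53369 RPKM in uninjured muscle. Of 16 nuclear genes of mitochondrial respiration 15 were called lower and 1 was not called, with a median of -1.46 beside the -1.98 of Sod2. Their part in the values of Nox4, Sod2 and Sod3 was not tested.

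Day 3 replicate 3 had the lowest sum of fibre markers, with a median log2 difference of -1.87 from the mean of the other 2 day 3 libraries. In that library Cyba was higher than in the other 2 by 0.48 on the log2 scale. Ncf4 was higher by 0.33, Rac2 by 0.32, Sod3 by 0.31, Ncf1 by 0.22 and Sod1 by 0.07. The median difference of all tested genes was 0.06. Tested neutrophil markers differed by a median of 0.37, macrophage markers by 0.30, fibroblast markers by 0.07 and lymphocyte markers by 0.04. Nox4 differed by -0.55 and Sod2 by -0.31, and Cybb by -0.0049. Without this library the 9 calls were as with it. The summed level of the 12 neutrophil markers was 58.9, 26.8 and 47.9 RPKM in day 3 replicates 1, 2 and 3, so it was highest in replicate 1.

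The genes that prime and trigger the oxidase were mostly higher. Each of the 20 genes of oxidase activation was called higher (18 under median-of-ratios scaling), where 60.5% of all tested genes were. Their median log2 fold change was 4.31, beside 1.35 over all tested genes. Of the 20, 14 averaged under the minimum in uninjured muscle and were tested through their day 3 values. Itgb2 and Itgam, the chains of the integrin Mac-1 that binds opsonized particles, had log2 fold changes of 6.66 and 6.41, and Dock2, an exchange factor of Rac, had 5.66. Itgb2 had 61.6, 69.5 and 88.2 RPKM at day 3, against 0.76, 0.46 and 0.65 RPKM in uninjured muscle, and its groups did not overlap. Rap1a, a small GTPase that copurifies with the cytochrome, led the mean over all 6 libraries, although Arhgdib was above it in each day 3 library. It had the smallest change, at 68.2 to 90.7 RPKM at day 3 and 33.3 to 39.4 RPKM in uninjured muscle (log2 fold change 1.14, and -0.20 under median-of-ratios scaling).

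The enzymes that remove the peroxide made by oxidases and dismutases were less uniform. Of 31 peroxide and thiol antioxidant genes 30 were tested, 17 (56.7%) were called higher, none was called lower and 13 were not called, where 60.5% of all tested genes were called higher. Their median log2 fold change was 1.09, under the 1.35 of all tested genes. Under median-of-ratios scaling 6 were called higher and 8 lower. Prdx4, the peroxiredoxin of the secretory pathway, had 64.6, 65.6 and 77.0 RPKM at day 3, against 2.91, 2.73 and 3.57 RPKM in uninjured muscle, a log2 fold change of 4.45. Gpx1, the cytosolic glutathione peroxidase, followed with 3.59 and Gpx8, of the endoplasmic reticulum, with 3.26. Prdx1, which led only the mean over all 6 libraries, since Gpx1 was higher at day 3 and Gpx4 in uninjured muscle, had 244 to 275 RPKM at day 3 and 60.3 to 66.2 RPKM in uninjured muscle. Catalase (Cat) and mitochondrial Prdx3, named after their values were seen, had log2 fold changes of 0.06 and -0.79 and were not called (-1.28 and -2.13, both called lower, under median-of-ratios scaling).

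Of 12 genes of the NRF2 pathway, which induces antioxidant enzymes, 7 (58.3%) were called higher, where 60.5% of all tested genes were. A further 1 was called lower and 4 were not called, against 4 higher and 4 lower under median-of-ratios scaling. Hmox1, the heme oxygenase, had 114, 115 and 218 RPKM at day 3, against 2.95, 2.78 and 2.66 RPKM in uninjured muscle, a log2 fold change of 5.62. G6pdx, which supplies the NADPH that the oxidases consume, and Slc7a11, the cystine carrier, had log2 fold changes of 4.55 and 4.50. Slc7a11 averaged under the minimum in uninjured muscle and was tested through its day 3 values, so its call was favoured by the filter. Me1, the cytosolic malic enzyme and another source of NADPH, was at 7.85, 9.03 and 5.16 RPKM at day 3, against 32.9, 30.6 and 33.9 RPKM in uninjured muscle, and was called lower (log2 fold change -2.17).

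Of 8 genes that carry or store copper 7 were tested and 6 were called higher, where 60.5% of all tested genes were. None was called lower and Ccs was not called. Under median-of-ratios scaling and under quantile normalization 3 were called higher. The metallothioneins Mt2 and Mt1, which bind copper and zinc, had log2 fold changes of 4.26 and 2.96, and the copper pump Atp7a had 2.34. Mt1, which led only the mean over all 6 libraries, had 101, 97.3 and 101 RPKM at day 3, against 8.78, 26.4 and 8.81 RPKM in uninjured muscle, where replicate 2 stood apart.

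**Figure D4:**
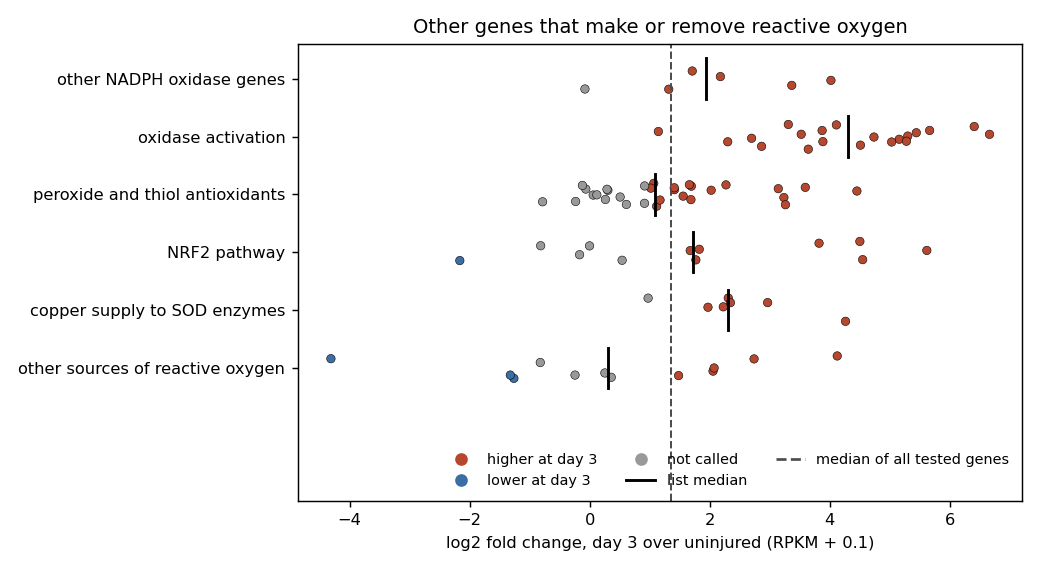
Log2 fold change of day 3 over uninjured muscle (x axis, on log2(RPKM + 0.1)) of each tested gene of 6 groups that make or remove reactive oxygen; points are genes, coloured by call, black bars are group medians and the dashed line is the median of all tested genes. The median of the oxidase activation genes is 4.31 and that of other sources of reactive oxygen is 0.30.

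The genes most like each member were those with the smallest Euclidean distance between centred log2(RPKM + 0.1) profiles over the 6 libraries, which mostly reflects a like fold change. For Cybb these were Cdk1, Myo1f and Fyb (distances 0.279 to 0.366), and for Cyba they were Grn, Apobec1 and Ncf4 (0.10 to 0.174). Ncf4 was nearest to Galns and Cd37, followed by Cyba. For Ncf1 the list was Pld4, Melk and Tlr9, and for Rac2 it was Gtse1, Slc38a1 and Inpp5d. Nox4 was nearest to 1700010I14Rik, Gm684 and Ankrd10 (0.214 to 0.274), which were also lowest in day 3 replicate 3 within their group. Sod1 was nearest to Mrpl17, Cdc123 and Trabd, at distances of no more than 0.0602. Sod2 was nearest to mt-Co1, the mitochondrially encoded cytochrome oxidase subunit, which had 4841, 5655 and 4244 RPKM at day 3 against 20349, 19770 and 18318 RPKM in uninjured muscle. Vdac1, a channel of the outer mitochondrial membrane, and LOC100046684 followed, and for Sod3 the nearest were Dut, Edem2 and Whsc1.

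Scaling by 1 factor per library shifted the members by roughly like amounts. Quantile normalization shifted them unequally, Nox4 from 2.60 to 0.96 and Sod1 from 0.85 to 0.25. Scaling by the ERCC spike-ins, synthetic RNAs added to the samples, put the median of all genes at 0.95, and scaling outside the mitochondrial genome put it at 1.04. Over 18 alternative settings the log2 fold change stayed between 5.66 and 7.37 for Cybb, 4.42 and 5.89 for Cyba, 4.93 and 6.48 for Ncf1, 4.04 and 6.19 for Ncf4, and 3.56 and 5.21 for Rac2. It stayed between 2.06 and 3.48 for Sod3 and between -3.32 and -1.88 for Sod2, and these 7 genes kept their calls in all 18. Nox4 kept its call in 17 of the 18 and ranged from 0.96 to 2.78, and Sod1 was not called in any and ranged from -0.49 to 0.88.

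**Figure D5:**
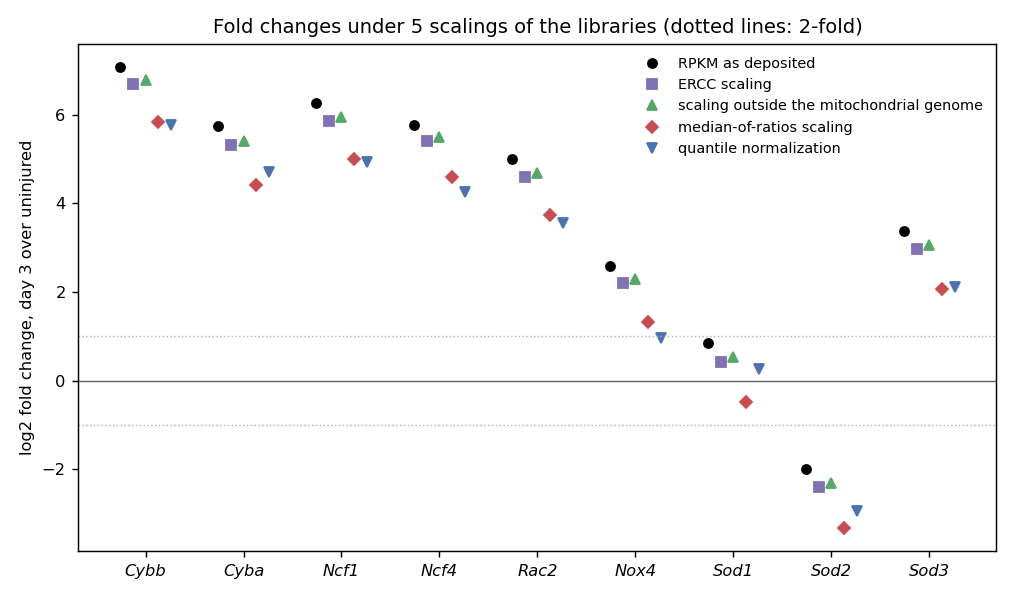
Log2 fold change of day 3 over uninjured muscle (y axis) of the 9 genes for RPKM as deposited and under 4 other scalings of the libraries; points are estimates from limma and dotted lines mark 2-fold. Median-of-ratios scaling and quantile normalization give the lowest values of the 5 phagocyte subunits, and Sod1 is the only gene whose sign changes, at -0.49 under median-of-ratios scaling.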

How the data were processed

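RNA from TA muscle (1 µg of total RNA per library) was sequenced to 50 nt from a single end. Per the methods, the authors used BWA against RefSeq mouse transcripts of March 2013, and they deposited RPKM for 34302 sequences. CASAVA 1.4 and SAMtools 0.1.19 are named in the submitters' processing notes. The rule for reads that match several transcripts is not given in the sources used here. The 96 sequences naming no gene, 92 of them ERCC spike-ins, stayed out of the tests. All values above the lowest listed value, 0.01, came to whole reads (100% of them, to within 0.01 read), and 0.01 was read as 0 reads.

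For genes with several transcripts, that with the highest mean was taken. Genes averaging 0.5 RPKM or more (14446) were tested with limma 3.58.1 in R 4.3.3 (lmFit and eBayes with trend, no covariate), and the procedure was tested on simulated data. Ratios and summaries used Python 3.11.15 with NumPy 2.4.6, pandas 2.3.3, SciPy 1.17.1 and matplotlib 3.10.9. Positions came from GENCODE M21 (GRCm38) and promoter windows from RefSeq (GRCm38.p6). Named genes were the 9 members, the other oxidase genes, up to 3 of the largest rises and falls and the gene of each other list with the highest mean over the 6 libraries, and the 3 nearest genes of each member. Markers of cell types were named more sparingly than this rule allows. The members and lists were chosen with earlier results of these data known, so no p was adjusted over a list and no list was tested as a set. An item withheld for evaluation is not reported here.

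Alternatives used pseudocounts of 0.01 and 1, no filter or a minimum mean of 2 RPKM, and other choices of scaling, trend, transcript, test (voom on recovered reads), replicate block and libraries.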

Additional observations from a re-analysis of the deposited data

How the results depend on the processing

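Members kept their direction and call under 18 alternatives, with these exceptions. Nox4 was not called under quantile normalization (log2 fold change 0.96), and Sod1, uncalled throughout, was -0.49 under median-of-ratios scaling. Rac1 was -0.0251 under median-of-ratios scaling. Median-of-ratios scaling gave 3801 genes higher and 3254 lower, and quantile normalization 3460 and 3561. Median-of-ratios scaling, then quantile normalization, gave 6 and 6 peroxide and thiol genes higher and 8 and 4 lower. They gave 4 and 4 NRF2 genes higher and 4 and 4 lower, and 3 and 3 copper genes higher. They gave 2 and 3 other sources of reactive oxygen higher and 6 and 7 lower. Of the other oxidase genes 2 were higher under quantile normalization, 3 were higher and 1 was lower under median-of-ratios scaling, and 3 were higher with a pseudocount of 1 or a minimum mean of 2 RPKM. ERCC scaling and scaling outside the mitochondrial genome each gave 1 peroxide and thiol gene and 2 NRF2 genes lower. The cause was not tested. A pseudocount of 1 moved the log2 ratio differences to 0.23 (Cybb/Cyba), -0.62 (Ncf1/Cybb), -1.62 (Ncf4/Cybb), 2.54 (Rac2/Rac1, and 3.88 with 0.01), -3.85 (Nox4/Cybb), 2.16 (Sod3/Sod1) and 4.94 (Sod3/Sod2). Leaving out 1 library at a time, NRF2 genes lower ranged from 1 to 2 (2 without uninjured replicate 2). With the replicate number as a replicate block, 8743 genes were higher and 1149 lower and no member changed call. Deviations of same-numbered libraries correlated at -0.06, 0.09 and 0.02, and those of different-numbered libraries at -0.08 to 0.07. With 3 libraries per group these values cannot decide whether the numbers pair them. The low read numbers in uninjured muscle, 47 for Ncf4, 190 for Ncf1, 213 for Rac2 and 256 for Cybb, limit the precision of those fold changes.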

Other observations

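Other sources of reactive oxygen did not move in a common direction at day 3. Of 17 such genes 12 were tested. Of these 5 (41.7%) were called higher, where 60.5% of all tested genes were. A further 3 were called lower, where 7.96% of all tested genes were, and 4 were not called. Their median log2 fold change was 0.30, beside 1.35 over all tested genes. Under median-of-ratios scaling 2 were higher and 6 lower. Alox5, the lipoxygenase that starts leukotriene synthesis, had 3.84, 4.04 and 6.06 RPKM at day 3, against 0.16, 0.15 and 0.18 RPKM in uninjured muscle (log2 fold change 4.12). Alox5 averaged under the minimum in uninjured muscle and was tested through its day 3 values, so its call was favoured by the filter. Ero1lb and Ero1l, the oxidases that form disulfide bonds in the endoplasmic reticulum, had log2 fold changes of 2.74 and 2.07 (1.49 and, uncalled, 0.76 under median-of-ratios scaling).

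Nos1, the nitric oxide synthase held at the fibre membrane, had 0.73, 1.70 and 0.42 RPKM at day 3, against 17.7, 19.7 and 17.2 RPKM in uninjured muscle, a log2 fold change of -4.31 (standard error 0.41, limma adjusted p = 2.76e-05). Maob, a monoamine oxidase of the mitochondrial outer membrane, and Aox1, an aldehyde oxidase, were called lower at -1.32 and -1.27. Each of these 3 genes was lowest in day 3 replicate 3, the library with the lowest fibre markers. Romo1, which led the mean over all 6 libraries although Xdh was above it at day 3, had a log2 fold change of -0.25 and was not called (-1.58 and lower under median-of-ratios scaling). Epx, the eosinophil peroxidase, was at the lowest listed value in all 6 libraries.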
